A study of Mus musculus with 30 samples.

Results

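Spleen and lymph node were compared in the pilot part of the study, in which Seq-Well (single-cell RNA sequencing in microwells) was run on 30 libraries from 8 organs. The 11 libraries used here were all those labelled spleen (2 libraries, 699 barcodes) or lymph node (9 libraries, 2505 barcodes). They came from male DBA1/J mice, which by the study's methods were 8 to 12 weeks old. Mice with collagen-induced arthritis (CIA) had been immunised with bovine collagen II in complete Freund's adjuvant and boosted on day 20 in incomplete adjuvant; healthy mice were injected with saline. The spleen libraries came from healthy mouse H6 and from CIA mouse S1, with an arthritis score of 8. The lymph nodes, described in the study as draining, came from healthy mice H3, H4, H6 and H7 and from CIA mice S1 and S2 (score 8) and S7 (score 3), with 2 libraries each for H4 and S7. Both organs were cryopreserved, thawed, strained and treated with red cell lysis buffer. Spleen had 1 mouse per state, so the comparison is between organs and not between states.

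Lymph nodes filter lymph and hold dense zones of recirculating T cells beside B cell follicles. The spleen filters blood. Its white pulp holds T and B cells, including marginal zone B cells, and its red pulp holds macrophages, plasma cells and myeloid cells, and in mice also developing red cells.

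A value here is the sum of a gene's units over the barcodes of a library, scaled to the library's total (units per 1000000, UPM). The study smoothed each barcode with its neighbours, so units are not independent molecules and no counting interval was drawn from them. The libraries held 1064463 to 4633747 units. Separate features divided the organs besides the organ itself. Both spleen titles end in a mark, (2), that no lymph node title has and the labels do not explain, so it and the organ cannot be told apart. Titles also carry a suffix, CIA or 2CIA, which the labels do not explain and which is not the disease state. The spleen of healthy H6 carries CIA and that of S1 carries 2CIA. Suffix, state and mouse therefore cannot be told apart between the spleens. In lymph node, healthy and arthritic mice occur under either suffix. Genes above 0 numbered 10307 in the spleen of H6 and 14148 in that of S1, against 4399 to 8770 in lymph node. A value of 0 is therefore given as listed at 0. Genes tested only because spleen was high, with a lymph node mean under 25 UPM, are given by their values alone, with no test. For the other genes with lymph node values of 0, the 10 added before the logarithm sets part of the log2 difference. In bulk sums of this kind, fewer cells of a type and less RNA per cell cannot be told apart.

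Rows annotated as pseudogenes, which are copies of genes that have lost their function, differed in their share between the organs. They held 26.2% to 44.2% of all lymph node units, 21.6% in the spleen of H6 and 8.51% in that of S1. Of those pseudogene units, rows named after ribosomal protein genes held 30.2% to 32.0% in lymph node and 29.6% to 31.4% in spleen. The protein-coding cytosolic ribosomal protein genes held 9.82% to 13.9% in lymph node, 12.3% in H6 spleen and 9.01% in S1 spleen, and there the organs overlapped in the library of H6. Thymus libraries had 12.01% to 18.6% of units in pseudogene rows and blood libraries 7.09% to 31.8%. Reads of a gene and of its near-identical copies can be assigned to either, so single pseudogene values are uncertain. Counts over gene lists are given on all rows, and again with pseudogene rows and rows without a symbol left out before scaling, a choice made after the values were seen. Single genes are given on all rows, with the adjusted p without pseudogene rows where a call was lost.

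**Figure D1:**
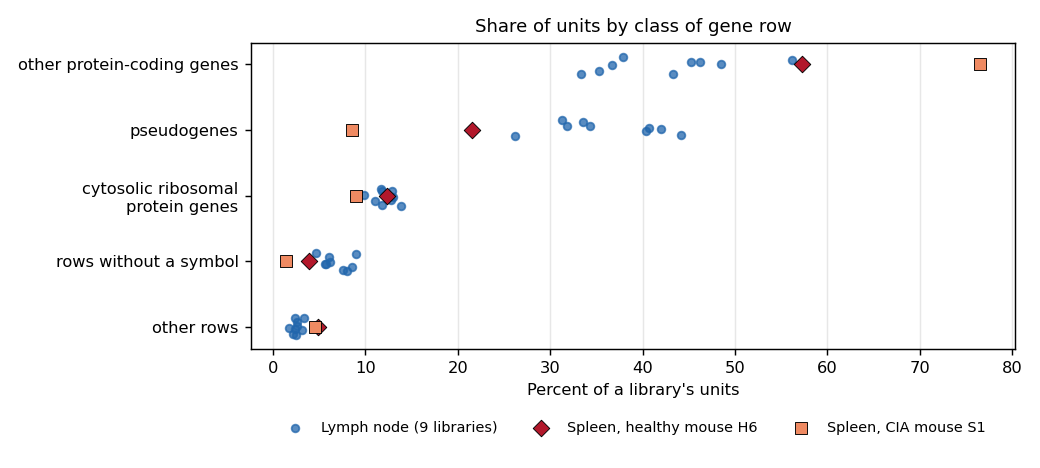
Percent of each library's units (x axis) in 5 classes of gene row (y axis); blue points are the 9 lymph node libraries, the diamond and square the spleens of H6 and S1. Pseudogene rows lie at 26.2% to 44.2% in lymph node and at 21.6% and 8.51% in spleen, while for the ribosomal protein genes H6 spleen lies among the lymph node points and S1 spleen, at 9.01%, below them.

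Spleen differed from lymph node in both directions. The fit was limma on log2(UPM + 10) over libraries summed per mouse (2 spleens, 7 lymph nodes) with Benjamini-Hochberg adjustment, and a call was an adjusted p under 0.05. Of 5296 genes tested, 122 (2.3%) were higher and 776 (14.7%) lower in spleen, and 713 of those lower were pseudogene rows or rows without a symbol. Of 5167 genes that averaged 25 UPM or more over the 11 libraries, both spleens lay above every lymph node library for 361 (6.99%) and below every one for 720 (13.9%). Without those rows 4920 genes were tested, of which 24 (0.488%) were higher and 77 (1.57%) lower, and 100 (2.09%) lay above and 206 (4.31%) below the range of 4781. All 24 of the former were also called on all rows, and 58 of the 77. In both fits the genes called higher include some tested only because spleen was high, Camp and Ngp among them. Of the 122, 25 were at 0 in at least 4 of 9 lymph node libraries. The shares of all genes called higher that stand beside the gene lists below include such genes. Over all tested genes the log2 difference had a median of 0.07 on all rows and -0.03 without pseudogenes.

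Mice H6 and S1 gave both organs. With mouse as a block, which rests on those 2 pairs and leaves 1 residual degree of freedom, the calls on all rows numbered 45 higher and 300 lower, and 16 and 24 without pseudogene rows. These blocked counts stand beside the unblocked ones because they differ by more than 1.5 times. The spread in the blocked fit comes mostly from the variance that limma shares over genes. For Hba-a1 the SE was 0.69 with the block and 2.04 without it. A blocked p therefore does not measure how well the 2 mice agree.

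T cell genes were lower in spleen. The T cell receptor binds peptide antigen through its alpha and beta chains and signals through the CD3 chains, the kinase Lck and the adaptor Lat. Of 18 genes of the receptor and its signalling partners, 18 were tested, 13 were called lower and 0 higher, both on all rows and without pseudogenes, where 14.7% and 1.57% of all genes were called lower. Their median log2 difference was -1.91 on all rows and -2.42 without pseudogenes, beside the medians near 0 over all genes. With mouse as a block 6 of 18 stayed called on all rows and 10 of 18 without pseudogenes. Without the spleen of S1 6 of 18 were called, and without that of H6 10 of 18. Such a fit has 1 spleen, so its spread comes from the lymph nodes alone and the lone spleen is assumed to vary as they do; this holds for every value below that leaves out a spleen.

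Trac (Entrez 100101484, chr14:54220521-54224198 in GRCm38), the constant region of the receptor's alpha chain, was at 62.9 UPM in the spleen of H6 and 102.7 in that of S1. Lymph node values were 723.4 for H3, 447.2 and 486.6 for H4, 813.7 for H6, 436.9 for H7, 415.4 for S1, 484.7 for S2, and 501.3 and 259.3 for S7. Both spleens lay below all 9. Spleen differed from lymph node by -2.54 on the log2 scale (SE 0.34, limma adjusted p = 0.000133), by -3.50 within H6 and by -1.92 within S1.

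The beta constant regions Trbc1 and Trbc2 are near-identical, so reads can be split between them. Trbc1 was at 252.3 and 133.2 UPM in the spleens of H6 and S1, and at 406.3 to 1174 in lymph node, median 622.6. It differed by -1.75 (SE 0.37, limma adjusted p = 0.00288; 0.0781 with mouse as a block). Trbc2 had 433.1 and 155.8 UPM in spleen against 645.1 to 1540 in lymph node, and differed by -1.86 (adjusted p = 0.00198; 0.0668 with the block). Neither was called without the spleen of S1 (adjusted p = 0.106 and 0.113).

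Cd3d, Cd3e and Cd3g, which encode the receptor's CD3 delta, epsilon and gamma chains, lie within a stretch of chromosome 9. Cd3d (Entrez 12500, chr9:44981769-44987052) was at 72.3 UPM in H6 spleen and 110.1 in S1 spleen, against 247.3 to 794.3 in lymph node, median 406.3. It differed by -2.14 (SE 0.36, limma adjusted p = 0.000527). Cd3e stood at 42.2 and 43.6 UPM in spleen and 134.6 to 281.4 in lymph node, a log2 difference of -1.97 (SE 0.34, adjusted p = 0.000708). Cd3g stood at 55.1 and 65.4 against 179.9 to 388.0, a difference of -2.07 (adjusted p = 0.000563; 0.0569 with the block on all rows and 0.00729 without pseudogenes). The 3 chains moved by near-equal amounts, and no spleen value reached a lymph node value.

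Lck, the kinase that phosphorylates the CD3 chains, was at 35.3 and 58.9 UPM in spleen and 206.0 to 372.4 in lymph node. Lck differed by -2.36 (SE 0.33, limma adjusted p = 0.000174). Lat, the membrane adaptor downstream of it, was at 56.0 and 72.3 against 105.2 to 362.6 UPM, differing by -1.52 (adjusted p = 0.0103; 0.0797 with the block, 0.0614 without the spleen of S1 and 0.0638 without that of H6).

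Cd8b1, the beta chain of the CD8 co-receptor, was at 11.2 and 15.3 UPM in spleen against 39.5 to 239.1 in lymph node, and differed by -2.65 (SE 0.45, limma adjusted p = 0.000561). Cd4 and Cd8a, the other co-receptor chains, did not pass: Cd4 was at 5.17 and 9.496 UPM in spleen and 0 to 70.0 in lymph node (adjusted p = 0.218), and Cd8a at 31.0 and 3.24 against 0 to 125.6 (adjusted p = 0.411). Both were listed at 0 in 2 lymph node libraries, so their groups overlapped.

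**Figure D2:**
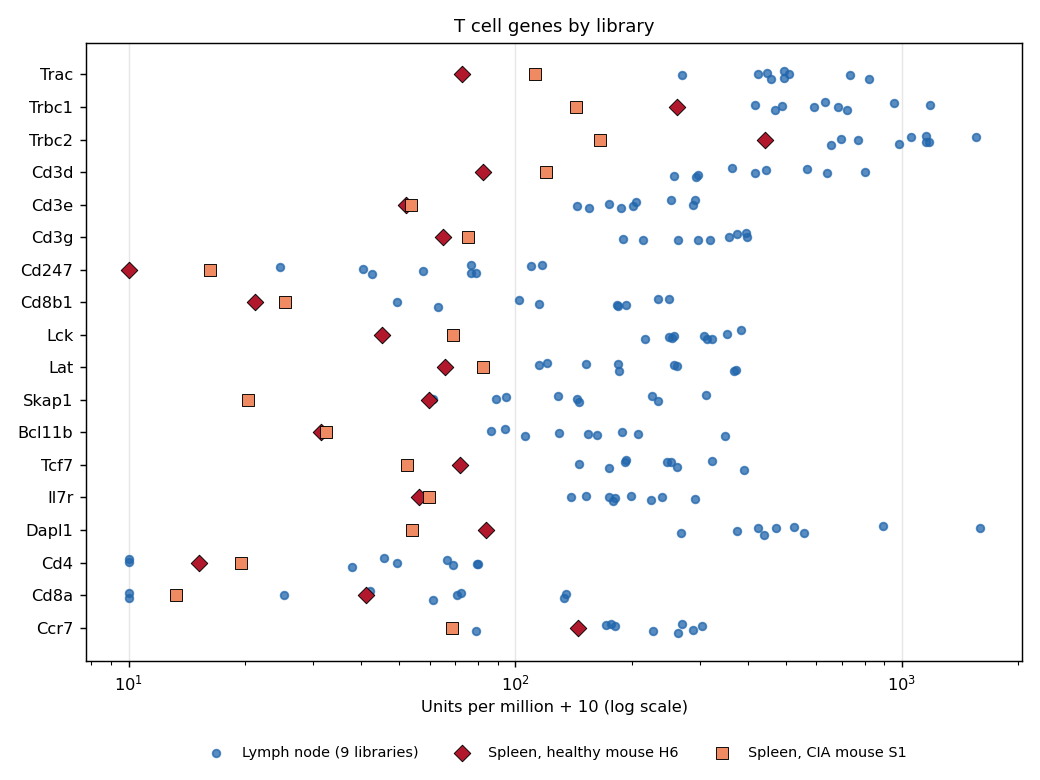
UPM + 10 (x axis, log scale) of 18 T cell genes (y axis); blue points are the 9 lymph node libraries, the red diamond the spleen of H6 and the orange square that of S1. Both spleens lie left of every lymph node point for Trac, the CD3 chains, Lck, Tcf7, Il7r and Dapl1, and among the points for Cd4 and Cd8a.

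Genes of naive T cells were mixed: 10 of 14 had a negative log2 difference on all rows, and 13 of 14 without pseudogenes. Of 14 tested, 6 were called lower on all rows and 7 without pseudogenes, 0 were called higher, and the median log2 difference was -1.05 and -1.54. Over all genes 14.7% and 1.57% were called lower. With mouse as a block 1 of 14 stayed called on all rows and 3 of 14 without pseudogenes. Dapl1 (Entrez 76747, chr2:59484653-59505020) was at 74.0 and 44.0 UPM in spleen. In lymph node it ran from 258.0 to 1580, the highest being H6, and spleen differed by -3.10 (SE 0.46, limma adjusted p = 0.000229). Tcf7, a transcription factor of T cells, was at 62.0 and 42.5 UPM in spleen against 136.1 to 379.6, a difference of -1.94 (adjusted p = 0.00103; 0.151 with the block). Il7r, the receptor for the survival cytokine interleukin 7, was at 46.5 and 49.9 against 129.1 to 281.8 UPM and differed by -1.71 (adjusted p = 0.00139; 0.0845 with the block). Bcl11b, a factor that keeps T cell identity, is not among the 14. It was at 21.5 and 22.4 UPM against 76.3 to 338.7 (log2 difference -2.24, adjusted p = 0.00194).

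Satb1, Ms4a4b and Ms4a6b were the other listed genes called lower on all rows (limma adjusted p = 0.0257, 0.00539 and 0.0254). With the block their adjusted p was 0.626, 0.0965 and 0.209. The rest of the list did not pass on all rows. Ccr7, the chemokine receptor that guides cells into lymph nodes, was at 135.2 and 58.5 UPM in spleen and 69.2 to 293.8 in lymph node (adjusted p = 0.152). Lef1 was at 61.1 and 23.7 UPM against 58.6 to 384.9, and passed only without pseudogenes (adjusted p = 0.0424 against 0.0684 on all rows).

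The summed level of neutrophil genes was above the lymph node range in both spleens, and far higher in that of the CIA mouse. Neutrophils make antimicrobial granule proteins while they mature. Of 17 genes listed, 8 passed the filter on low values. S100a8 and S100a9 were the 2 that averaged 25 UPM or more in lymph node alone; the other 6 passed only through their spleen values, and no test of them is given. The summed level of the listed genes was 4490 UPM in H6 spleen and 99916 in S1 spleen, against 0 to 3175 in lymph node. In the 8 blood libraries of the study it was 1363 to 74312.

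Camp (Entrez 12796, chr9:109847377-109849456), which encodes the antimicrobial peptide cathelicidin, was at 404.7 UPM in H6 spleen and 5195 in S1 spleen. It was listed at 0 in 8 lymph node libraries and stood at 12.3 in that of S2. Ngp (Entrez 18054, chr9:110419808-110423012), a granule protein of immature neutrophils, was at 201.5 and 3376 UPM in spleen. In lymph node it was listed at 0 in 7 libraries, with 120.6 in S1 and 31.3 in S2. Both spleens lay above every lymph node library for Camp and Ngp.

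S100a8 and S100a9 encode the 2 subunits of calprotectin. S100a8 was at 2779 UPM in H6 spleen and 60461 in S1 spleen. In lymph node it was at 28.0 in H3, 0 and 948.9 in H4, 77.1 in H6, 2140 in H7, 1460 in S1, 301.3 in S2 and 729.7 and 69.5 in S7. S100a8 differed by 5.14 (SE 1.19, limma adjusted p = 0.00537), by 5.00 within H6 and 5.36 within S1. S100a9 was at 979.9 and 27695 UPM in spleen against 0 to 928.8, differing by 5.46 (adjusted p = 0.00593; 0.0581 with 1 added before the logarithm in place of 10). The spleen of H6 lay just above the highest lymph node library for both, and inside the range for S100a9 once pseudogene rows were left out. Without the spleen of S1 neither was called (adjusted p = 0.307 and 0.323).

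Ltf, which encodes the iron-binding protein lactoferrin, was at 38.7 and 628.9 UPM in spleen, and Lcn2, which binds bacterial siderophores, at 31.0 and 626.9. All 9 lymph node libraries listed Ltf at 0, and 8 of 9 listed Lcn2 at 0.

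A promoter stretch is shown for the 4 of these genes that carry a C/EBP-type motif, because C/EBP factors drive granule genes in maturing neutrophils. Each is the 250 bases before the RefSeq start (GRCm38.p6), 5′ to 3′ on the gene's strand, with TTGCNNAA on either strand in capitals.
S100a9: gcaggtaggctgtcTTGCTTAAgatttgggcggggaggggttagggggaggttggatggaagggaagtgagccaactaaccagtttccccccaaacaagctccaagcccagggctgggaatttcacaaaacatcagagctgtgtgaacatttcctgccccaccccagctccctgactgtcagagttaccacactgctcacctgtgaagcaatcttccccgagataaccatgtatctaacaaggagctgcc
Ngp: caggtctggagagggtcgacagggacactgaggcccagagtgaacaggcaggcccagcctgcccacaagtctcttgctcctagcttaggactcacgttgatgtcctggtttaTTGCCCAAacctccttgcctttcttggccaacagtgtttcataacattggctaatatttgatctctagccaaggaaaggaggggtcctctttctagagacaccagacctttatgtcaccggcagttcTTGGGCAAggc
Ltf: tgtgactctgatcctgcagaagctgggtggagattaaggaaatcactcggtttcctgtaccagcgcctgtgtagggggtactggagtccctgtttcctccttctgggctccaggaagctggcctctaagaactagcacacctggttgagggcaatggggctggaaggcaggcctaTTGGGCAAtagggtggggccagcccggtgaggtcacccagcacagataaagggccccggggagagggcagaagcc
Lcn2: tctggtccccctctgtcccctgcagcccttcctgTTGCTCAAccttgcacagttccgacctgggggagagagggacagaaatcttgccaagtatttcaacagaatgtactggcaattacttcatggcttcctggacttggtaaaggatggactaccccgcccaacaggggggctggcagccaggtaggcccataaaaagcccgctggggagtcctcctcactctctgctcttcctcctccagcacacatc
They lie at chr3:90695722-90695971 (minus strand), chr9:110419558-110419807 (plus), chr9:111019042-111019291 (plus) and chr2:32387740-32387989 (minus). The motif and its reverse complement were present for 7 of the 16 listed neutrophil genes with a promoter in the table, against 10.8% of 27025 genes. Camp and S100a8 had no match in this window. The motif was picked after the values were seen, and a match is a description of letters, not of binding.

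Some other myeloid genes were higher in spleen. Of 8 monocyte genes tested, 3 were called higher (Lyz2, Plac8 and Ccr2) and 1 lower (Ms4a6b, which is also counted among the naive T cell genes), and 2 and 1 without pseudogenes. With mouse as a block 2 were higher and 0 lower, Ms4a6b being lost (limma adjusted p = 0.209), and 1 and 0 without pseudogenes. Without the spleen of S1 0 were higher and 2 lower. Over all genes 2.3% were called higher and 14.7% lower, and 0.488% and 1.57% without pseudogenes. The summed level of the 12 listed monocyte genes was 2985 UPM in H6 spleen and 6435 in S1 spleen, against 957.8 to 2003 in lymph node and 629.8 to 14980 in blood. On all rows 2 of the 8 tested had a negative log2 difference, Ms4a6b and Ly6c2. Ly6c2 was at 25.8 UPM in H6 spleen, below every lymph node library, and at 501.5 in S1 spleen, above every one. In lymph node it ran from 114.1 to 466.7, and it was not called (log2 difference -0.79, limma adjusted p = 0.475). The 2 spleens were close for Tyrobp and Ccr2, and far apart for Wfdc21, Anxa1 and Ifitm3, with S1 the higher. Lyz2 (Entrez 17105, chr10:117277541-117282272), the lysozyme of macrophages, monocytes and granulocytes, was at 1670 UPM in H6 spleen and 3331 in S1 spleen, against 30.9 to 435.3 in lymph node. Lyz2 differed by 3.97 (SE 0.70, limma adjusted p = 0.000766; 0.0643 without the spleen of S1). Tyrobp, the adaptor DAP12 of myeloid and NK cell receptors, was at 458.9 and 383.1 UPM against 0 to 99.3, differing by 2.92 (SE 0.43, adjusted p = 0.000191; 0.00998 without the spleen of S1). Plac8 was at 793.0 and 1550 against 70.5 to 636.4 UPM (log2 difference 2.37, adjusted p = 0.00941; 0.223 without the spleen of S1 and 0.0845 with the block and pseudogenes left out). Anxa1, which encodes the anti-inflammatory protein annexin A1, was at 91.3 and 803.0 UPM against 0 to 37.8. Wfdc21, a protein with a whey acidic protein domain, was at 54.2 and 1264 UPM against 0 in 8 libraries and 28.9 in the other. Ifitm3, an interferon-induced restriction factor, was at 93.9 and 703.8 UPM against 0 to 66.7. Both spleens lay above every lymph node library for these 3 genes, which were tested only through the spleen. Ccr2, the chemokine receptor of inflammatory monocytes, was at 100.7 and 130.6 UPM against 0 to 47.0, and passed on all rows (adjusted p = 0.0114) but not with the block (0.198), without pseudogenes (0.268) or without the spleen of S1 (0.156).

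Some antibody genes were also higher in spleen. Of 16 genes of plasma cells and antibody, 10 passed the filter and 4 were called higher on all rows, where 2.3% of all genes were; without pseudogenes 11 passed and 4 were called, or 2 with mouse as a block, against 0.488% of all genes. All 4 called on all rows averaged 25 UPM or more in lymph node alone. The summed level of all 16 was 16464 UPM in H6 spleen and 9365 in S1 spleen, against 1403 to 3944 in lymph node and 933.5 to 8395 in blood. In this list, unlike the neutrophil list, the healthy spleen was the higher of the 2.

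Ighm (Entrez 16019, chr12:113418826-113422730), the constant region of IgM, was at 2451 UPM in H6 spleen and 2195 in S1 spleen. In lymph node it was at 475.9 in H3, 187.9 and 336.9 in H4, 232.9 in H6, 584.4 in H7, 763.0 in S1, 268.6 in S2 and 386.2 and 531.5 in S7. Ighm differed by 2.501 (SE 0.39, limma adjusted p = 0.000321; 0.0511 with the block and pseudogenes left out). Igkc, the kappa constant region, was at 6986 and 4303 UPM against 559.0 to 1770 and differed by 2.21 (SE 0.32, adjusted p = 0.000184; 0.31 with the block and pseudogenes left out). Jchain (Entrez 16069, chr5:88519809-88527897), which joins IgM and IgA into polymers, was at 1558 and 1112 UPM. It was listed at 0 in 5 lymph node libraries and reached 208.2 in S7, a log2 difference of 5.38 (SE 0.85, adjusted p = 0.000325). In the blood libraries Jchain did not exceed 22.9 UPM.

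Light chain genes were highest in the spleen of H6. Iglc1, a lambda constant region that shares sequence with its neighbours, was at 2206 and 163.2 UPM in spleen against 28.9 to 190.5. The S1 spleen lay inside the lymph node range, and the call (log2 difference 3.04, adjusted p = 0.00597) was lost without H6 (0.317). The variable segment Iglv1 was at 1231 and 84.8 UPM against 0 to 32.2, and Igkv1-135 at 788.7 and 33.0 against 0 to 19.3. Both were tested only through the spleen. Segments of this kind are part of large families, and their values are uncertain for that reason. Units in the plasma cell and antibody genes lay in few barcodes: the top 10% of barcodes held 60.8% in H6 spleen and 57.5% in S1 spleen, against 16.4% to 52.0% in lymph node.

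B cell genes differed less. Of 14 identity genes 12 were tested, 2 were called higher on all rows, 0 without pseudogenes and 0 with the block, beside 2.3% and 0.488% of all genes called higher. The median log2 difference was 0.66 on all rows and 0.24 without pseudogenes. Cd22, an inhibitory B cell receptor, was at 417.6 and 312.7 UPM against 46.0 to 212.7 (log2 difference 1.26, limma adjusted p = 0.0264; 0.336 without pseudogenes). Cr2, the complement receptor that is high on marginal zone B cells, was listed with those cells and not among the 14. It was at 152.4 and 138.8 against 16.9 to 92.4 UPM (log2 difference 1.36, adjusted p = 0.0309). Its adjusted p was 0.407 without pseudogenes and 0.054 with 1 added in place of 10. Cd79b was at 600.1 and 286.2 UPM against 100.1 to 311.2, and its S1 spleen value lay inside the range (adjusted p = 0.0494; 0.468 without pseudogenes). None of these 3 was called with either spleen left out, and Cd79b was also lost without the lymph node of any 1 mouse other than S1, and Cr2 without that of S7. Without pseudogene rows Cd22 lay inside the lymph node range. The 10 MHC class II genes gave 0 calls in either fit.

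**Figure D3:**
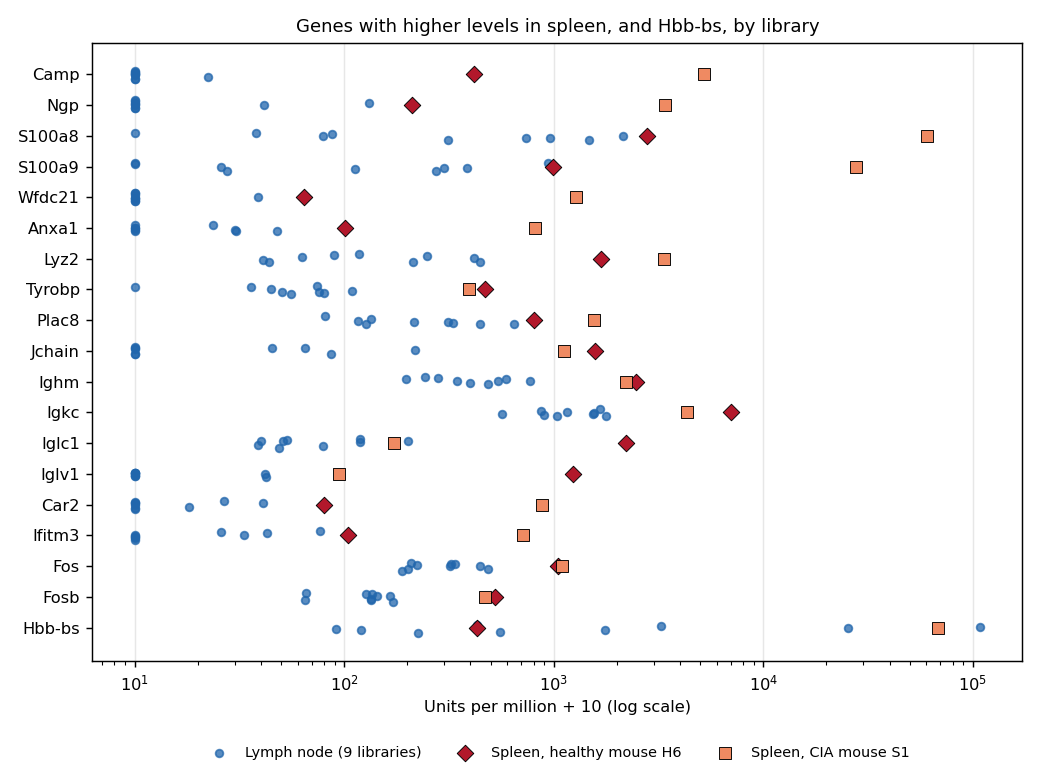
UPM + 10 (x axis, log scale) of 18 genes with higher levels in spleen, and of Hbb-bs (y axis), with symbols as in the plot of T cell genes; genes given without a test in the text are shown as values only. The spleen of S1 lies far right of that of H6 for Camp, Ngp, S100a8 and S100a9, the 2 spleens lie close together for Tyrobp, Ighm, Fos and Fosb, and Hbb-bs overlaps between organs.

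Haemoglobin set single libraries apart in both organs. Hbb-bs, a beta globin, was at 421.0 UPM in H6 spleen and 68105 in S1 spleen, and in lymph node at 81.4 to 108280, the highest being H7. Its groups overlapped and it was not called (limma adjusted p = 0.607; 0.0344 with the block, in which the 2 pairs moved in opposite directions). Red cells were lysed before sequencing. Car2, the carbonic anhydrase of red cell precursors and other cells, was at 69.7 and 863.9 UPM in spleen against 0 to 30.9. It was tested only through the spleen. Of the 6 erythroid genes that averaged 25 UPM or more in lymph node alone, 0 were called in the main fit. With the block Hba-a1 was called besides Hbb-bs (limma adjusted p = 0.0129, and 0.035 with pseudogenes also left out). Its 2 pairs too moved in opposite directions.

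Some immediate early genes, which respond to stimulation or handling of cells within minutes, were higher in spleen on all rows. Of 16 immediate early and heat shock genes 7 were called higher, 2 without pseudogenes, 1 with the block, 0 with both and 2 without the spleen of S1. Over all genes 2.3% were called higher, and 0.488% without pseudogenes. Fos was at 1033 and 1088 UPM against 178.1 to 477.6 (log2 difference 1.85, limma adjusted p = 0.00168; 0.103 with the block and 0.449 with the block and pseudogenes left out). Fosb was at 511.5 and 459.2 against 55.0 to 160.1 UPM (2.03, adjusted p = 0.000939; 0.0633 with the block and 0.337 with the block and pseudogenes left out).

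Defining markers of red pulp macrophages were low in both spleens and listed at 0 in lymph node. Of 16 genes of red pulp macrophages and iron handling only Fth1 and Ftl1 passed the filter, and the other 14 were listed at 0 in all 9 lymph node libraries. In spleen 12 of the 14 were above 0 in at least 1 library, and Mrc1 and Vcam1 in both. Both spleens had more genes above 0 than any lymph node library, and the same share over all genes was not taken. Nothing is therefore read from these counts. Mrc1, the mannose receptor, was at 31.9 UPM in H6 spleen and 4.32 in S1 spleen, and the adhesion molecule Vcam1 at 12.1 and 1.73. Spic, a transcription factor of red pulp macrophages, was at 5.83 UPM and the haem-degrading enzyme Hmox1 at 23.1 in S1 spleen alone, and Adgre1, the F4/80 antigen, at 0 in both. The ferritin gene Fth1 was at 2506 and 1840 UPM against 666.1 to 1560 (log2 difference 1.03, limma adjusted p = 0.0263; 0.376 with the block, 0.54 without pseudogenes, 0.0749 without the spleen of S1 and 0.178 without that of H6).

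**Figure D4:**
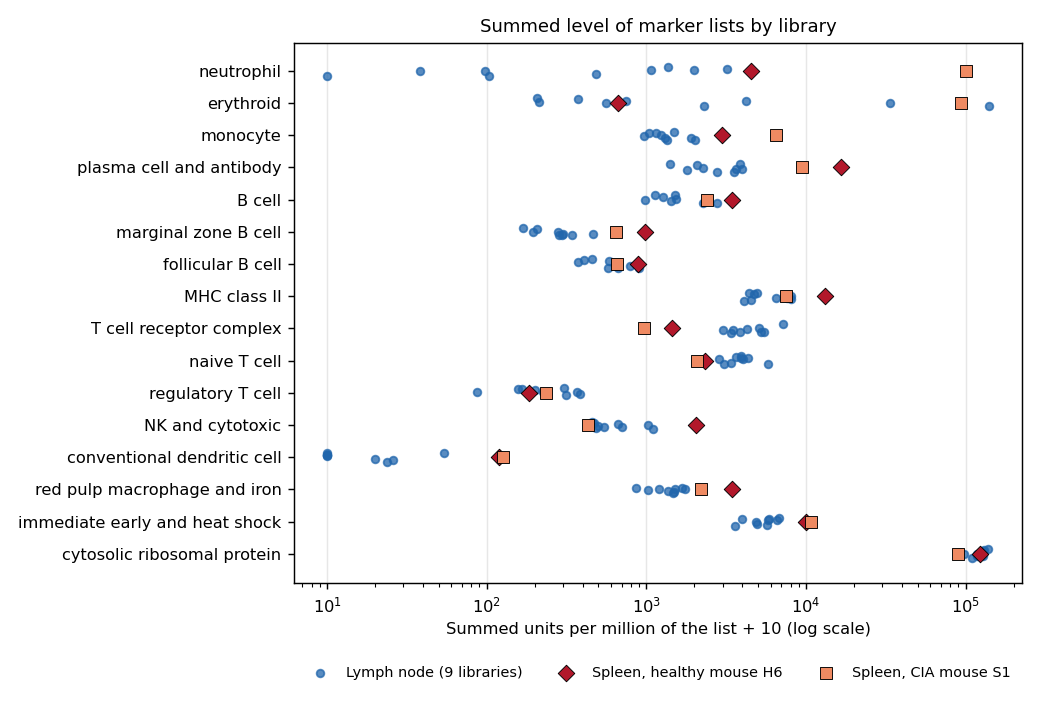
Summed UPM + 10 of 16 gene lists (x axis, log scale; y axis, lists), with symbols as in the plot of T cell genes. Both spleens lie below all lymph node libraries for the T cell receptor complex and above all for the neutrophil, monocyte and antibody lists, and the erythroid list overlaps. The conventional dendritic cell list, at 108.5 and 116.3 UPM in spleen against 0 to 44.3, had no gene that passed the filter, and the 1st percentile of values above 0 was 3.44 and 1.08 UPM in spleen against 5.12 to 21.6 in lymph node.

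Genes lowest in spleen on all rows were pseudogenes. By largest log2 difference the named ones were Rpl31-ps6, Rpl36a-ps1, Rps23-ps2, Rpsa-ps1, Rpl9-ps1, Rpl13-ps4, Rps19-ps7, Rpl23a-ps2, Rpl31-ps13 and Rpl23a-ps5, with differences of -3.71 to -2.86, beside Dapl1 and Actg2. Rpl31-ps6 was listed at 0 in H6 spleen and stood at 22.4 UPM in S1 spleen, against 106.0 to 544.9 in lymph node (limma adjusted p = 0.000133). Actg2, a smooth muscle actin, was listed at 0 and at 3.67 UPM in spleen and ran from 26.8 to 275.3 in lymph node (log2 difference -3.08, adjusted p = 0.000693). Rpl5, a ribosomal protein gene, was at 19.8 and 25.7 UPM against 103.2 to 271.5 (log2 difference -2.24, adjusted p = 0.000661). Of 83 cytosolic ribosomal protein genes 78 were tested, and 7 (8.97%) were called lower on all rows, a smaller share than the 14.7% of all genes. Without pseudogenes 11 of 81 (13.6%) were called lower, against 1.57% of all genes. With mouse as a block the counts were 2 and 3. The median log2 difference was -0.20 on all rows and -0.67 without pseudogenes. On all rows 17 were lower without the spleen of H6 (median -0.43), and 3 lower and 1 higher without that of S1 (median 0.014).

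The size of the difference was also taken within each of the 2 mice that gave both organs. Most named genes were chosen with both spleens outside the lymph node range, which fixes their sign in both mice, so nothing is read from the shared sign. Dapl1 differed by -4.24 in H6 and -2.79 in S1, and Cd8b1 by -3.55 and -2.93. Among genes with a spleen inside the range, the signs were opposite for Cd79b, at 2.47 and -0.12, Hbb-bs, at -2.91 and 6.94, and Hba-a1, at -2.37 and 7.35.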

How the data were processed

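Spleen (2 mice) and lymph node (7 mice) libraries were taken from the pilot table of 8 organs. Per the study's methods the authors aligned reads to GRCm38 with STAR, counted molecular identifiers with the Drop-seq tools, filtered barcodes and smoothed each with its nearest neighbours. The submitters' processing notes name GRCh38 and mm9 instead, and which build gave these rows was not settled, so coordinates are those of the RefSeq gene, not of the authors' alignment. Against doublets, the study's methods describe an upper limit on transcripts per cell for a joint set of 5 organs that includes spleen but not lymph node; whether it was applied to this pilot table is not given in the sources used here, and no doublets were removed here. The deposited signal values are whole-number sums over neighbouring barcodes, not raw counts. Genes were matched by Entrez number (21404 of 23013 rows had a symbol), with coordinates of the RefSeq table for GRCm38.p6. Rows without a symbol held 5.53% of the units of the 11 libraries.

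Units were summed per library, scaled to units per 1000000 (UPM) and, for the test, summed per mouse. limma 3.58.1 in R 4.3.3 was fitted with a mean-variance trend on log2(value + 10), for genes averaging 25 UPM or more; p-values are two-sided and Benjamini-Hochberg adjusted. The added 10 shrinks differences of genes with low values. Nothing says that libraries of 1 mouse are separate samples beyond the mouse. On simulated data for this comparison (5296 genes, 200 changed), 59.5% of those set to a log2 change of 2 were recovered, and 90% of those set to 3.

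Mice H6 and S1 gave both organs, so same-numbered samples are paired by animal; their deviations correlated at -0.02 in H6 and 0.16 in S1. Named genes were, per direction, up to 12 that were called and outside the range, by largest difference, without predicted genes, plus list members; Rpl5, Bcl11b, Igkj1 and the other leading genes without pseudogene rows were added after the values were seen. The members and lists were chosen with earlier results of these data known. Alternatives were other scalings, barcode weights, filters, pseudocounts, blocks, a disease term, the title suffix and leaving out each sample. Python 3.11.15, numpy 2.4.6 and pandas 2.3.3 were used. Some genes of the lists are not reported here.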

Additional observations from a re-analysis of the deposited data

Results flagged for a closer look

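Among 69 named genes, lymph node values of 1 mouse stood apart from the other 6 by Dixon's test in 14 cases. In 3 of them the other 6 mice were at 0, which meets the limit whatever the value is, and 11 remain; chance gives about 1 in 20, and the genes are not independent. Mouse H6 was highest for Cd3d (794.3 UPM, the next at 471.1), Skap1 (300.9, next 165.7), Dapl1 (1580, next 884.9) and Bcl11b (338.7, next 185.7). Tcf7 was highest in H3 (379.6, next 252.1). Mouse H7 was highest for Hbb-bs (108280, next 16301), Hba-a1 (19357, next 3490) and S100a9 (928.8, next 376.8). Mouse S1 was highest for Ngp (120.6, next 31.3) and Ifitm3 (66.7, next 25.8). Mouse S2 was highest for Rpl5 (271.5, next 169.2). The 3 with all other mice at 0 were Camp (12.3 in S2), Wfdc21 (17.9 in H4) and Igkv1-135 (11.3 in S7).

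The spleen minus lymph node difference had opposite signs in the 2 mice for 3 named genes, and this was not tested with 1 pair per state. Cd79b was at 2.47 in H6 and -0.12 in S1, Hbb-bs at -2.91 and 6.94, and Hba-a1 at -2.37 and 7.35.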

How the results depend on the processing

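Main counts were 122 genes called higher and 776 lower in spleen, and 361 above and 720 below the lymph node range. Genes called higher numbered 194 with median-of-ratios scaling, 1085 with no filter on low values, 65 with suffix 2CIA only, 62 with a pseudocount of 1, 219 with a pseudocount of 50, and 258 with values under 25 set to 25 (added after seeing the data). With suffix CIA only, 7 were higher and 30 lower. With pseudogene rows left out (also added) they were 24 and 77, and 100 above and 206 below the range. Pairing by mouse as a fixed block gave 45 and 300, and 16 and 24 without pseudogene rows; a random block gave 124 and 776. Leaving out 1 sample gave 61 to 126 higher and 271 to 957 lower; the lowest were without the S1 spleen and the highest lower count without the H6 spleen. Outside the range, leaving out 1 library gave 377 to 1038 above (807 without the H6 spleen, 1038 without that of S1) and 736 to 1329 below (1329 without the H6 spleen). Median-of-ratios scaling gave 688 above, no filter 1492 above, suffix CIA only 1616 above and 1360 below, and suffix 2CIA only 1170 above and 1649 below; each suffix has 1 spleen. Directions reversed for 3 named genes, none of them called in the main fit. Cd8a was at 0.053 with suffix CIA only. Hbb-bs was at -3.73 with suffix CIA only and between -1.86 and 5.45 without 1 spleen (S1 and H6). Under the same settings Hba-a1 was at -3.47 and between -1.44 and 5.73. Apart from the settings above, the cause of these changes was not tested.

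With 2 spleens, genes changed by 1 on the log2 scale were not recovered in simulation (0%), which limits what the absence of a call shows. An unexplained title mark and the number of genes above 0 run with the organ in these 11 libraries.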
